A study of Rattus norvegicus with 12 samples.

Results

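Prolactin and growth hormone signalling was described through 9 genes of the rat mammary gland, the receptor genes Prlr and Ghr, the kinase gene Jak2, the factor genes Stat5a and Stat5b, and the inhibitor genes Socs1, Socs2, Socs3 and Cish. The genes were picked by symbol as the receptor, Jak2, Stat5 and Socs members of this pathway, and all 9 were among the 16511 genes counted. The 12 libraries came from mammary glands at postnatal day 21 (PND21), with 6 in the group whose mothers had a high fat butter (HFB) diet and 6 in the group whose mothers had the AIN diet (CTL). The design text gives a single snap-frozen gland from each litter, and the comparison asks whether the maternal diet is followed by other transcript levels in the gland before puberty. Both groups carry no other treatment in the labels, which leave strain and sex unnamed. The paper given with the series describes microdissected epithelium and other groups for its sequencing, in conflict with these labels, so the labels were followed and strain and sex were not taken from it. The sources give more than a single end of the HFB diet, so the exposure window of these glands was not settled. Libraries are named by diet and a number from 1 to 6, which pairs nothing between the diets.

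Total counts ran from 2320267 to 2760871 in HFB (median 2660268) and from 2403464 to 2944680 in CTL (median 2537563.5). Levels are given as counts relative to library size (CPM), scaled between libraries by edgeR's TMM method. A level of 3 counts was used as the limit of detection, which is 1.02 CPM in the deepest library and 1.29 CPM in the shallowest before that scaling. HFB 6 and CTL 6 stood apart from the other 10 libraries. The summed level of the 10 adipocyte genes examined was 23477 CPM in HFB 6 and 19084 CPM in CTL 6, against 44533 to 53418 CPM in the others. The summed level of the 11 lymphoid genes was 1432 CPM in HFB 6 and 1554 CPM in CTL 6, while HFB 1 had 529.7 CPM and HFB 2 had 250.2 CPM. The other libraries had 35.6 to 117.8 CPM. As each diet held such a library, most results that rest on them are given with and without the pair. The relation of Ghr to the adipocyte score and the r values of the genes nearest to Ghr are given only without it.

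Prolactin and growth hormone bind receptors of the class I cytokine receptor family, which have no kinase of their own and signal through the bound kinase Jak2. Jak2 phosphorylates the factors Stat5a and Stat5b, which then dimerize, enter the nucleus and bind DNA at palindromic sites. Among the genes they turn on are the inhibitors Cish, Socs1, Socs2 and Socs3, which dampen the same receptors, and in the mammary gland this pathway drives alveolar growth and milk protein genes.

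The letters bound by Stat5 dimers, TTCNNNGAA, were searched in 300-base windows around the annotated gene starts of the RefSeq assembly GRCr8, 250 bases before to 50 bases after each start. These letters read the same on both strands. Windows were found for 8 of the 9 genes, all but Socs2, with 9 windows in all because Prlr has a pair of starts. Of the 33469 windows of this length in the table, 2970 (8.87%) held the letters at least 1 time. Of the members' windows 3 held them, those of Cish, Socs1 and the downstream start of Prlr, and they are shown with the matches in capitals. The number of matches was not tested against levels or against the spread between libraries. The Cish window lies at chr8:116850719-116851018 on the plus strand, that of Prlr at chr2:60909409-60909708 on the plus strand, and that of Socs1 at chr10:5389324-5389623 on the plus strand.
Cish: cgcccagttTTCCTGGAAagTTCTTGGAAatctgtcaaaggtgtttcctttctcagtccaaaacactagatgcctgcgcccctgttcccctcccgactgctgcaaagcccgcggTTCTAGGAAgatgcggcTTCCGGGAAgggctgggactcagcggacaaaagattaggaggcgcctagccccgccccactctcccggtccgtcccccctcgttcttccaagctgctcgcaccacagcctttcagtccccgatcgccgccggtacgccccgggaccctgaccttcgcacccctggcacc
Prlr: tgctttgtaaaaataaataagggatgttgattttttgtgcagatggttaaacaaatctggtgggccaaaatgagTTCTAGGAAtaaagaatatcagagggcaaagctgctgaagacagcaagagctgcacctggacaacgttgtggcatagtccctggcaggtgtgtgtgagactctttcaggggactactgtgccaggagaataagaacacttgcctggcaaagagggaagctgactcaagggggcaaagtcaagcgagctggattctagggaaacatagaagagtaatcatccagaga
Socs1: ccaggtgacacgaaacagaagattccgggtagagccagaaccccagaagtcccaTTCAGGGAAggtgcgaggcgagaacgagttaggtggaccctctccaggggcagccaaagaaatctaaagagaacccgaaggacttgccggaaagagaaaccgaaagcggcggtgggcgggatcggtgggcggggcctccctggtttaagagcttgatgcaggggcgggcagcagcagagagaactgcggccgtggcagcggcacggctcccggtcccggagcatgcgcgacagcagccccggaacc
The matches of Cish were TTCCTGGAA, TTCTTGGAA, TTCTAGGAA and TTCCGGGAA, which began at -241, -230, -136 and -119 from the start. Of all windows, 2 (0.00598%) held as many as 4 matches, and no window held more. Prlr had TTCTAGGAA at -176 and Socs1 had TTCAGGGAA at -196. The windows of Ghr, Jak2, Stat5a, Stat5b and Socs3 and the upstream window of Prlr did not hold these letters, which says nothing of sites elsewhere or of binding.

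No member was called between the diets. After the low-count filter 6 of the 9 members were tested (Ghr, Jak2, Stat5a, Stat5b, Socs2 and Cish), and 0 of the 6 had an adjusted p under 0.05 in edgeR, against 0 of all 9382 genes tested (0%). At an unadjusted p under 0.05 the count was also 0 of 6, against 220 genes (2.34%) of all tested. DESeq2 and the edgeR fit without the filter, which take in all 9 members, called 0 of 9 and gave 0 of 9 at an unadjusted p under 0.05, and limma-voom gave 0 of 6 for both. At an unadjusted p under 0.05 DESeq2 had 320 of 13396 genes in all, the fit without the filter 305 of 13557 and limma-voom 613 of 9382. The 6 members had a median log2 fold change (HFB minus CTL) of -0.11, with 1 above 0 and 5 below it, and the median over all genes tested was 0.00018. The median of the 6 was -0.07 without HFB 6 and CTL 6 and -0.20 without HFB 2, where 2 lay above 0. No member had diets that did not overlap in CPM, against 10 of all genes tested (0.107%). In the two-sided exact permutation test over the 924 ways to assign 6 of 12 libraries, which was run on the log2 CPM of every gene with a count, 1 of the 9 members (Prlr) had p under 0.05, against 396 of 13557 genes (2.92%). As the smallest p of that test is 0.00216, a gene could pass after adjustment over all 13557 only if very many genes had that p, so its adjusted p of 1 for each member says little.

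**Figure D1:**
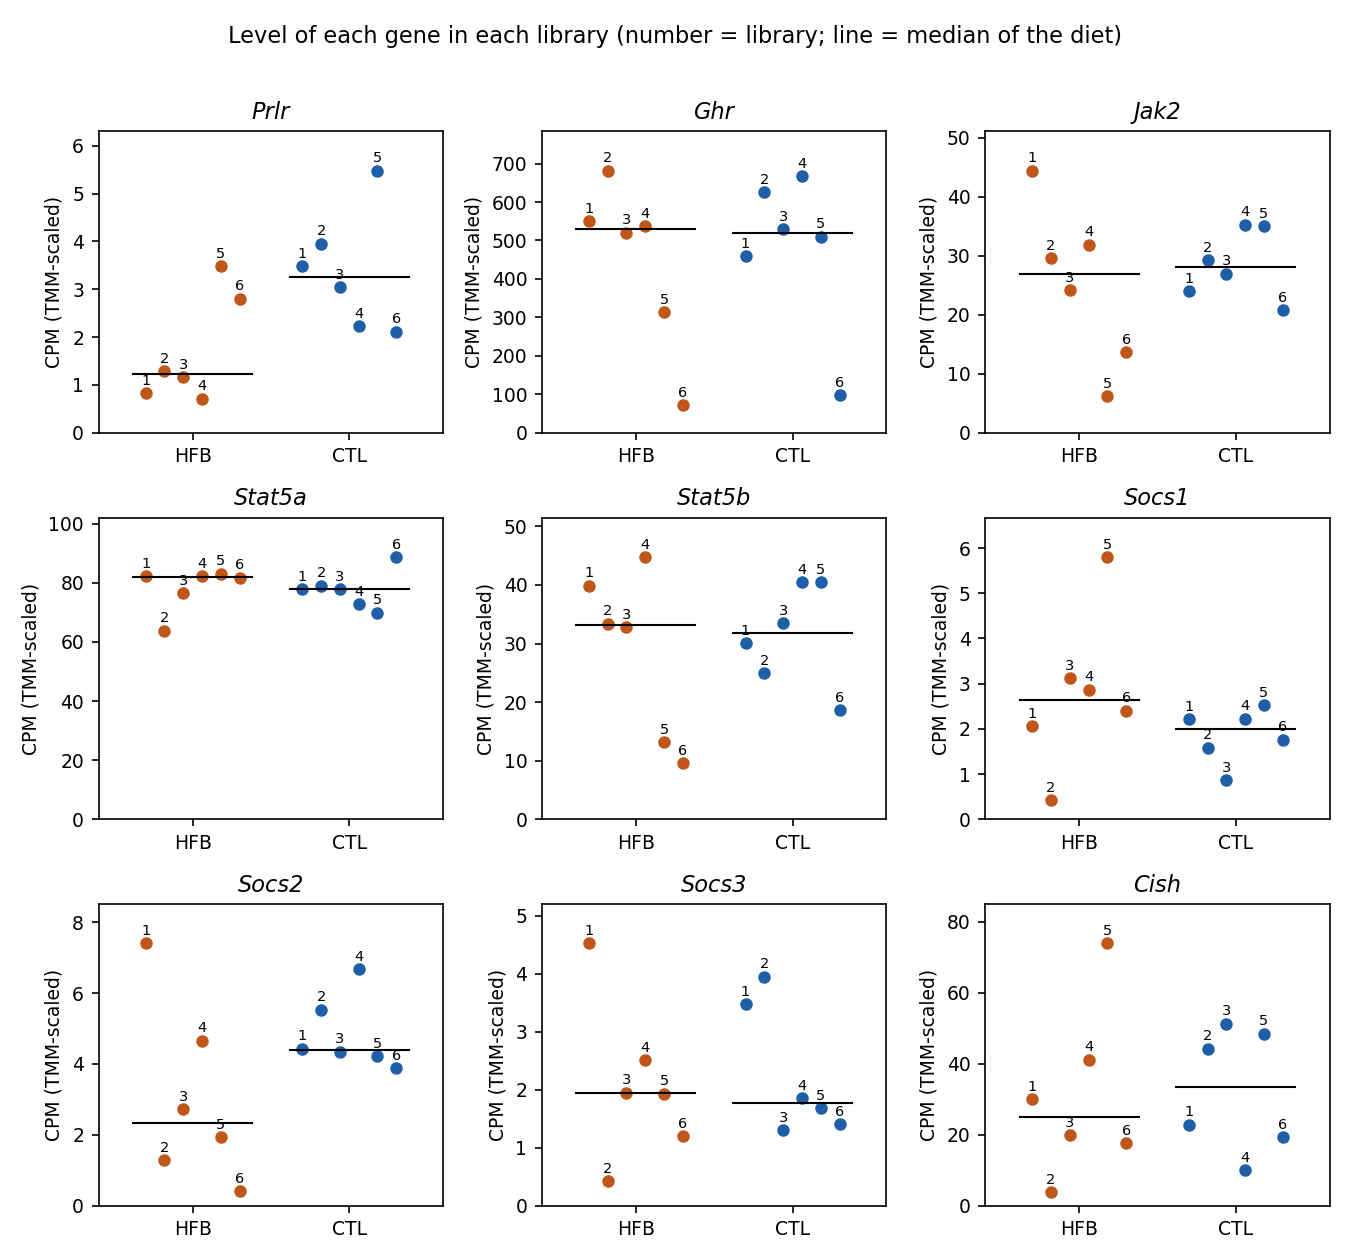
Level of the 9 members in CPM (TMM-scaled, axis from 0) in each of the 6 HFB and 6 CTL libraries, with the library number above each point and a line at the median of the diet. The Prlr level of HFB 1 to HFB 4 lies below every CTL library, HFB 6 and CTL 6 are lowest for Ghr, and Stat5a has the smallest ratio of highest to lowest CPM (1.39).

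**Figure D2:**
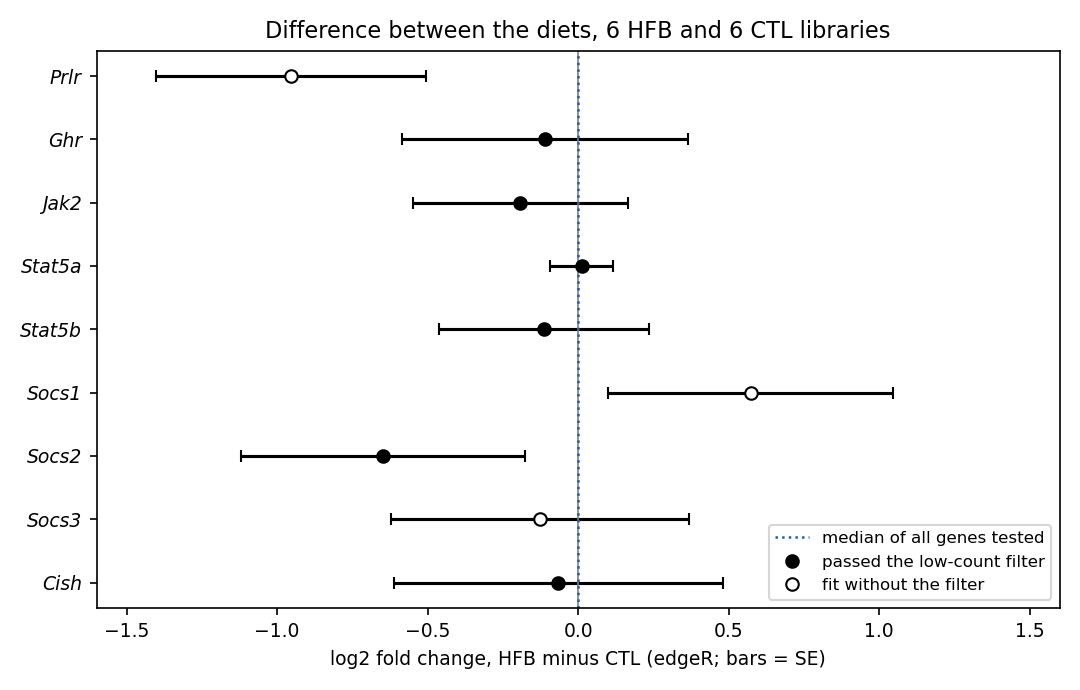
Log2 fold change between the diets (HFB minus CTL) for each member, with SE as bars, from the edgeR fit of 6 HFB and 6 CTL libraries. Filled points are the 6 members that passed the low-count filter, open points are Prlr, Socs1 and Socs3 from the fit without the filter, and the dotted line is the median of all 9382 genes tested.

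Prlr, the prolactin receptor gene, was low, with 79 counts in all libraries together. Its level in HFB was 0.716 CPM at the lowest, 1.23 CPM at the median and 3.48 CPM at the highest, and in CTL it was 2.11, 3.26 and 5.48 CPM. HFB 1, HFB 2, HFB 3 and HFB 4 lay below every CTL library, HFB 5 and HFB 6 lay within the range of CTL, and so the diets overlapped. In counts this was 2 to 9 in HFB and 6 to 13 in CTL, with HFB 1 and HFB 4 at 2 counts, under the limit of detection used here. The difference in mean log2 CPM was -0.81 (two-sided exact permutation test, p = 0.0325, adjusted p = 1 over all genes with a count). In the same exact test p was 0.0317 without HFB 6 and CTL 6 (difference -1.03), and it lay above 0.05, from 0.0584 to 0.0671, when HFB 1, HFB 2, HFB 3, HFB 4 or CTL 5 was left out. Prlr did not pass the low-count filter, and the fit without the filter gave a log2 fold change of -0.95 with an SE of 0.45 and an edgeR adjusted p of 0.998. Prlr is a gene of the mammary epithelium among other tissues, and the luminal epithelium genes were also low in some of these libraries. Of the 8 luminal genes listed, 7 had counts (Cldn3 had none), and their summed level was 118.9 CPM in HFB 1, 156.8 CPM in HFB 2, 135.3 CPM in HFB 3 and 189.1 CPM in CTL 3, against 258.5 to 625.8 CPM in the other libraries. Krt8 was the most abundant of them, from 41.7 to 222.5 CPM. HFB 4, which like HFB 1 had 2 Prlr counts, had a luminal sum of 392.1 CPM. The part of the luminal list in the Prlr values was not tested, and in whole glands fewer cells of a type and less RNA per cell cannot be told apart.

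Ghr, the growth hormone receptor gene, had 72.6 CPM at the lowest, 529 CPM at the median and 682 CPM at the highest in HFB. In CTL the same values were 98.3, 519 and 667 CPM. The lowest library of each diet was the one numbered 6, HFB 5 followed with 313.7 CPM, and the other 9 libraries lay between 460 and 682 CPM, so the diets overlapped over nearly their whole range. The log2 fold change was -0.11 with an SE of 0.48 (edgeR adjusted p = 0.999), and the difference in mean log2 CPM was -0.18 (exact permutation test, p = 0.66, adjusted p = 1). Without HFB 6 and CTL 6 the log2 fold change was -0.10 with an SE of 0.18, on 5 libraries a diet. The sign turned with 2 library choices, to 0.11 without HFB 6 alone and to 0.02 without CTL 4. It also turned with 3 of 12 other settings, by the most with the lymphoid marker score as a covariate (0.23). With the luminal epithelium score as a covariate the log2 fold change was -0.48.

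Jak2, the kinase bound to both receptors, had 6.19 CPM at the lowest, 26.9 CPM at the median and 44.4 CPM at the highest in HFB. In CTL it had 20.8, 28.1 and 35.2 CPM. HFB 5 and HFB 6 lay below every CTL library and HFB 1 lay above, while the CTL libraries fell inside the range of HFB. The log2 fold change was -0.19 with an SE of 0.36 (edgeR adjusted p = 0.999), and the difference in mean log2 CPM was -0.39 (exact permutation test, p = 0.418, adjusted p = 1). Leaving out HFB 5, which had 16 counts, moved the log2 fold change to 0.01, without HFB 1 it was -0.43, and without HFB 6 and CTL 6 it was -0.14. With the luminal epithelium score as a covariate it was -0.58.

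Stat5a and Stat5b are close paralogs and direct neighbours in the GRCr8 gene table, with no protein-coding gene starting between them. How reads that match both were counted is not given in the sources used here, so their separate levels are uncertain to that extent. Stat5a had 63.8, 82.0 and 83.2 CPM at the lowest, the median and the highest in HFB, and 70.0, 77.8 and 88.7 CPM in CTL. HFB 2 was the lowest library and CTL 6 the highest, and the other libraries of both diets were mixed between 70.0 and 83.2 CPM. The log2 fold change was 0.01 with an SE of 0.11 (edgeR adjusted p = 0.999; exact permutation test p = 0.909, adjusted p = 1), and its sign turned with 4 of 12 other settings, by the most with total counts only (-0.08), and with 5 of the 12 libraries when left out singly. Stat5b had 9.62, 33.1 and 44.8 CPM at the lowest, the median and the highest in HFB, and 18.7, 31.8 and 40.5 CPM in CTL. HFB 6 and HFB 5 lay below every CTL library, CTL 6 was the lowest of CTL, HFB 4 was the highest of all, and the diets overlapped. Its log2 fold change was -0.11 with an SE of 0.35 (edgeR adjusted p = 0.999), and the difference in mean log2 CPM was -0.26 (exact permutation test, p = 0.543, adjusted p = 1). With single libraries left out the log2 fold change ran from -0.28 (without HFB 4) to 0.07 (without HFB 6), and without HFB 6 and CTL 6 it was -0.04. With the luminal epithelium score as a covariate it was -0.38.

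Cish, a Stat5-induced inhibitor, spread most widely among the members with no library under 3 counts. In HFB it had 3.86 CPM at the lowest, 25.0 CPM at the median and 73.9 CPM at the highest, and in CTL 10.02, 33.5 and 51.3 CPM. HFB 2 was the lowest library and HFB 5 the highest, a ratio of 19.2 between libraries of the same diet, and the CTL range lay inside that of HFB. In counts HFB 2 had 9 and HFB 5 had 191. The log2 fold change between the diets was -0.07 with an SE of 0.55 (edgeR adjusted p = 0.999), and the difference in mean log2 CPM was -0.30 (exact permutation test, p = 0.68, adjusted p = 1). In edgeR the log2 fold change was 0.16 without HFB 2, -0.53 without HFB 5 and -0.05 without HFB 6 and CTL 6, and its sign turned with 6 of the 12 libraries when left out singly.

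Socs2, an inhibitor of growth hormone signalling, was low, with 0.401, 2.33 and 7.40 CPM at the lowest, the median and the highest in HFB and 3.87, 4.39 and 6.68 CPM in CTL. HFB 2, HFB 3, HFB 5 and HFB 6 lay below every CTL library, and HFB 1 lay above them all. HFB 6 had 1 count, under the limit of detection used here. It reached 10 counts in 6 of 6 CTL libraries and in 2 of 6 HFB libraries, so it passed the low-count filter mainly through CTL. The log2 fold change was -0.65 with an SE of 0.47 (edgeR adjusted p = 0.999), and the difference in mean log2 CPM was -0.81 (exact permutation test, p = 0.0844, adjusted p = 1). When HFB 1 was left out the log2 fold change was -1.10 and the gene had an unadjusted p under 0.05 in edgeR, with an adjusted p of 0.981. As Socs2 entered the edgeR tests mainly through CTL, nothing is concluded from that p. Without HFB 6 and CTL 6 the log2 fold change was -0.48. With HFB 1 left out, the exact permutation test gave p = 0.0108, and with HFB 4 left out it gave p = 0.0498. HFB 1 and HFB 4 had the highest Socs2 levels of HFB, 7.40 and 4.66 CPM. Leaving out either lowers the HFB mean, so nothing is concluded from these p values either.

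Socs1 and Socs3, which inhibit the kinases directly, did not pass the filter. Socs1 had 73 counts in all, with 0.428, 2.64 and 5.80 CPM at the lowest, the median and the highest in HFB and 0.870, 1.99 and 2.53 CPM in CTL. HFB 3, HFB 4 and HFB 5 lay above every CTL library. HFB 2 had 1 count and CTL 3 had 2 counts, both under the limit of detection used here. The difference in mean log2 CPM was 0.30 (exact permutation test, p = 0.416, adjusted p = 1), with p = 0.0303 in the exact test without HFB 2. HFB 2 was the lowest library for Socs1, so nothing is concluded from the p without it. With single libraries left out the difference for Socs1 ran from 0.09 to 0.58. Socs3 had 69 counts in all, with 0.428, 1.94 and 4.52 CPM in HFB and 1.30, 1.77 and 3.95 CPM in CTL. HFB 1 was the highest library, and HFB 2 had 1 count, under the limit of detection used here. For Socs3 the difference in mean log2 CPM was -0.16 (exact permutation test, p = 0.667, adjusted p = 1). HFB 2 was the lowest library for Cish, Stat5a, Socs1 and Socs3, but the highest for Ghr at 682 CPM. Its Jak2 (29.6 CPM) and Stat5b (33.4 CPM) levels lay above the HFB medians of 26.9 and 33.1 CPM. HFB 2 was also the highest library for the red blood cell genes. The 6 such genes in the table summed to 86614 CPM in HFB 2, against 53781 CPM in CTL 3 and 8293 to 31072 CPM in the others, with Hbb the most abundant on average, and the part of these transcripts in the low values was not tested.

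The members differed in how far libraries of a diet lay apart. The SD of log2 CPM between libraries of the same diet was 1.16 for Cish, 1.12 for Ghr, 0.73 for Socs2, 0.72 for Jak2, 0.69 for Stat5b and 0.13 for Stat5a, with a median of 0.40 over all genes tested. Of all genes tested 94.7% had a smaller SD than Cish and 94.0% a smaller SD than Ghr, while 1.204% had a smaller SD than Stat5a. Low counts add to the SD, so the same was read among the 1000 genes nearest in mean level. There 95.9% had a smaller SD than Cish, 97.4% than Ghr, 84.8% than Stat5b, 83.4% than Jak2, 53.2% than Socs2 and 2.40% than Stat5a. Without HFB 6 and CTL 6 the SD was 1.27 for Cish, 0.75 for Jak2, 0.59 for Socs2, 0.52 for Stat5b, 0.33 for Ghr and 0.12 for Stat5a, with a median of 0.28 over all genes tested. Among the 1000 genes nearest in mean level 99.4% then had a smaller SD than Cish, 96.5% than Jak2, 91.7% than Stat5b, 86.0% than Ghr, 58.8% than Socs2 and 6.70% than Stat5a, and among all genes tested 61.7% had a smaller SD than Ghr.

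**Figure D3:**
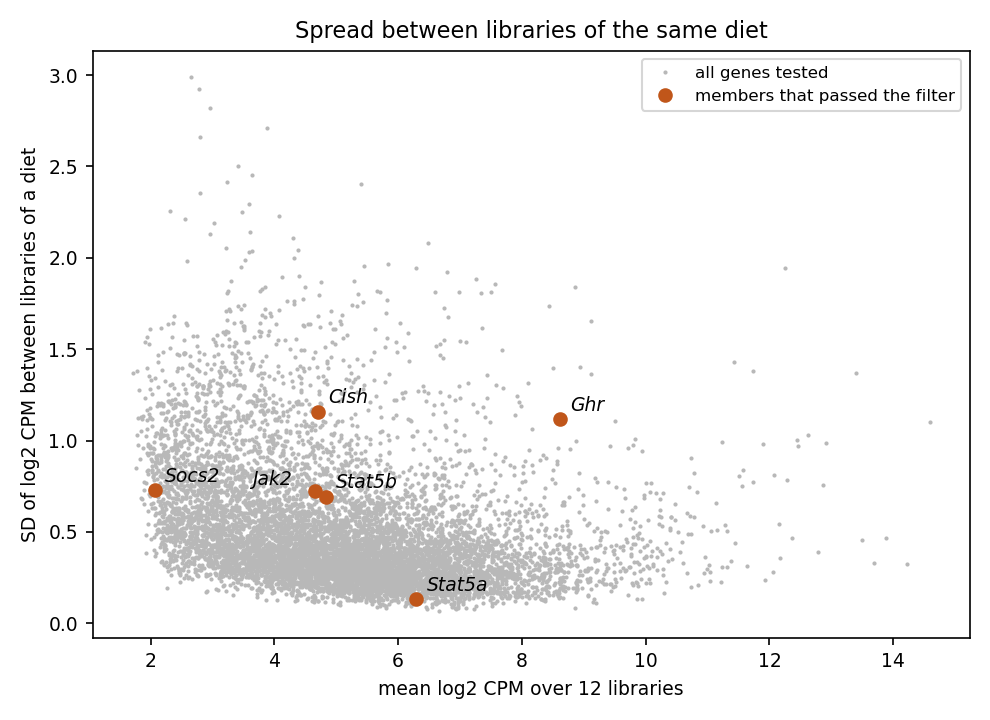
SD of log2 CPM between libraries of the same diet (both diets pooled) against mean log2 CPM over the 12 libraries, for the 9382 genes tested in grey and the 6 members that passed the filter in orange. Stat5a sits at the lower edge with 0.13, and Cish and Ghr sit high with 1.16 and 1.12, where the value of Ghr without HFB 6 and CTL 6 is 0.33.

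Relations across the 12 libraries were computed for the 15 pairs of the 6 members that passed the filter and for 42 pairs of a member with a tissue or stress score, the mean log2 CPM of a marker list. Of these 57 relations, 2 had a Pearson adjusted p under 0.05. The first was between Jak2 and Stat5b, with r = 0.846 (permutation test, p = 0.00143, adjusted p = 0.0408) and rho = 0.867 (permutation test, p = 0.00049, adjusted p = 0.0279). HFB 5 and HFB 6 were low for both genes and were the libraries farthest from the median of Jak2. Without that pair r was 0.744 (permutation test, p = 0.0133, adjusted p = 0.38). Within HFB r was 0.851 (exact permutation test, p = 0.0403) and within CTL 0.843 (exact permutation test, p = 0.0389), with 6 libraries each, and r on residuals from the diet means was 0.84. Leaving out single libraries gave r from 0.837 to 0.892, with an adjusted p of 0.0262 without HFB 5 or HFB 6 and 0.0496 without HFB 2. It lay between 0.053 and 0.097 without any of the other 9, so r held while the call came and went with 11 libraries in place of 12. Without HFB 6 and CTL 6 r was 0.919 (permutation test, p = 0.00387, adjusted p = 0.221), with HFB 5 still among the libraries. Over the 12 libraries 540 genes had r above 0.9 with Stat5b, higher than the r of Jak2. With Jak2 62 genes had r above 0.9. The relation is thus not particular to these 2 genes.

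The other relation was between Ghr and the score of the 10 adipocyte genes. HFB 6 and CTL 6 formed a separate pair, low in both, so no value over all 12 libraries is given. Over the other 10 libraries r was 0.765 (permutation test, p = 0.0279, adjusted p = 0.265) and rho was 0.37 (permutation test, p = 0.296, adjusted p = 0.727), and the relation thus passed the threshold only with that pair. Fabp4 was the most abundant adipocyte gene, with 11394 to 25255 CPM, and none of the list was at 0. With the adipocyte score as a covariate the log2 fold change of Ghr between the diets was 0.01 with an SE of 0.12, against an SE of 0.48 without it. Both fits hold HFB 6 and CTL 6, and without that pair the SE was 0.18 with no covariate. The lower SE is thus not read as a result about the score. Stat5a and Stat5b had r = -0.454 (permutation test, p = 0.135, adjusted p = 0.31) and rho = -0.413 (permutation test, p = 0.185, adjusted p = 0.412). Without CTL 6 and HFB 2, the farthest on Stat5a, r was -0.473, and without HFB 6 and CTL 6 it was -0.31. Within CTL r was -0.956 (exact permutation test, p = 0.00139, adjusted p = 0.0792) and within HFB -0.283 (exact permutation test, p = 0.715), with 6 libraries each. Cish had an adjusted p under 0.05 with none of the 5 other members and none of the 7 scores run.

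**Figure D4:**
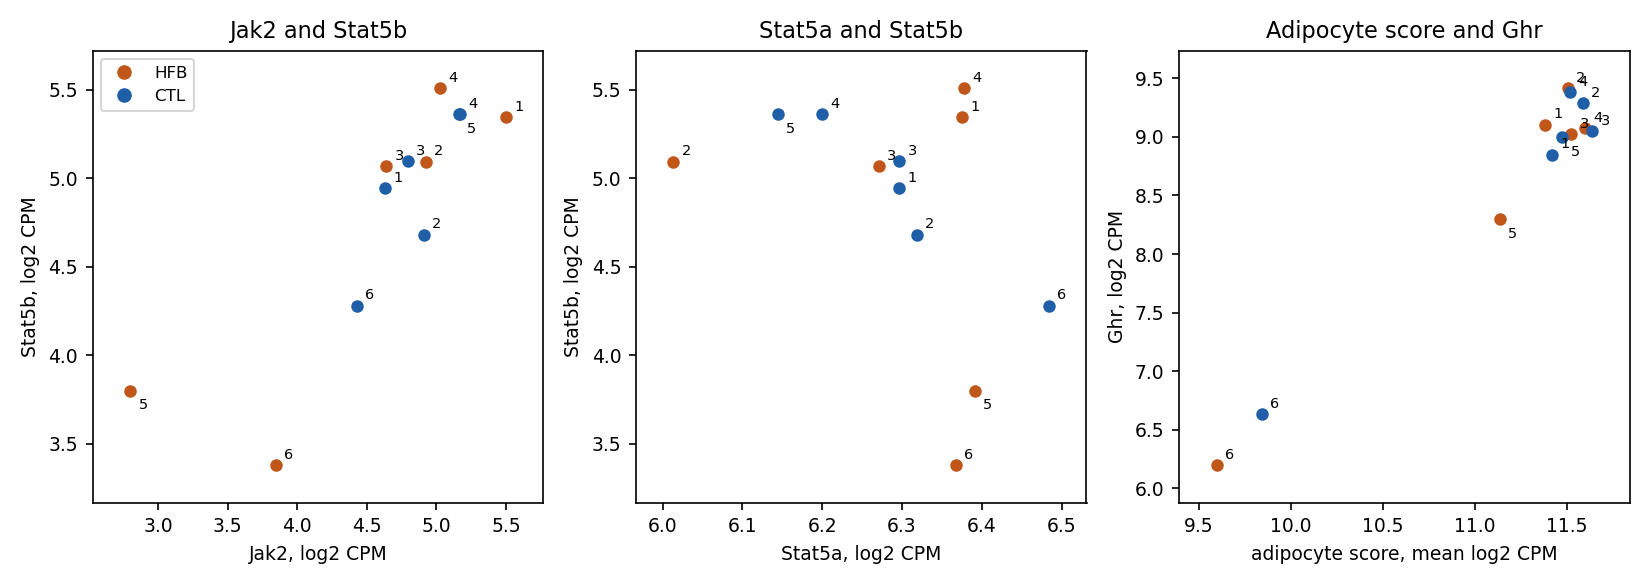
Values of the 12 libraries in log2 CPM, numbered within HFB (orange) and CTL (blue), for Jak2 against Stat5b, Stat5a against Stat5b, and the adipocyte score (mean log2 CPM of 10 genes) against Ghr. HFB 5 and HFB 6 lie low for Jak2 and Stat5b, and HFB 6 and CTL 6 lie apart from the other 10 libraries for the adipocyte score and Ghr.

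For each member that passed the filter, the 3 genes of all tested with the highest Pearson r over the 12 libraries are named as a description. For Ghr they were Prkar2b, Plin1 and Wsb2, of which Plin1 encodes the lipid droplet coat protein of adipocytes, and r is given only without HFB 6 and CTL 6, as 0.941, 0.854 and 0.815. Without that pair 2 genes had a higher r with Ghr than Prkar2b, 124 than Plin1 and 249 than Wsb2. For Stat5b they were Tgfbr2 (0.993), Dgcr2 (0.987) and Slc30a9 (0.986), and for Jak2 they were Card6 (0.979), Phf20 (0.971) and Zfp507 (0.964). Over the 12 libraries 617 genes had r above 0.9 with Ghr, 540 with Stat5b, 62 with Jak2, 1 with Socs2 and 0 with Stat5a and Cish. These counts moved without HFB 6 and CTL 6, to 41 for Ghr, 358 for Stat5b, 337 for Jak2, 3 for Socs2, 2 for Stat5a and 6 for Cish. The nearest to Socs2 were Anapc1 (0.903), Eri2 (0.9) and Dnajc27 (0.899), to Stat5a Tlnrd1 (0.899), Lpin3 (0.874) and Traf7 (0.864), and to Cish Zfp691 (0.836), Rab13 (0.825) and Rgs3 (0.823). Without HFB 6 and CTL 6, 73 genes had a higher r with Socs2 than Eri2 and 53 than Dnajc27.

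Transcripts of the hormones themselves were at or near 0. Prl had 0 counts in all libraries, which allows up to 0.0961 CPM over the libraries together if the gene could be counted, and Gh1 had 7 counts in all, at most 0.774 CPM in a library. Counting limits of this kind cover counting error only.

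Of the other pathway lists none held a gene called between the diets, in either direction, and 1 of the 35 genes tested (2.86%) had an unadjusted p under 0.05, against 2.34% of all genes tested. It was Csn1s1 among the 8 tested of the 12 target genes, the gene of the milk protein alpha-S1-casein, which Stat5 induces. Csn1s1 had 21.8, 57.8 and 79.5 CPM at the lowest, the median and the highest in HFB, and 47.0, 118 and 234 CPM in CTL. HFB 1 and HFB 2 lay below every CTL library, CTL 1, CTL 4, CTL 5 and CTL 6 lay above every HFB library, and the diets overlapped between them. The log2 fold change was -1.24 with an SE of 0.38 (edgeR adjusted p = 0.999), and the difference in mean log2 CPM was -1.15 (exact permutation test, p = 0.026, adjusted p = 1). That p was 0.0519 to 0.0541 when HFB 1, CTL 1, CTL 5 or CTL 6 was left out, and 0.0635 without both libraries numbered 6, in the same exact test, while the difference with single libraries left out ran from -1.39 to -0.92. With the luminal epithelium score as a covariate, a setting chosen after the data had been seen, the log2 fold change of Csn1s1 was -0.78. Lalba, another milk protein gene, ran from 18.1 to 179 CPM in HFB and from 56.1 to 230 CPM in CTL. Its log2 fold change was -0.38 with an SE of 0.50. For Csn3, also a milk protein gene, the log2 fold change was -0.03 with an SE of 0.78. The highest Csn3 level was 39.8 CPM in HFB and 34.8 CPM in CTL. Wap was not tested and had 35 counts in all, at most 6.41 CPM in HFB and 3.17 CPM in CTL. Csn2 was listed at 0 counts in every library, as were Prl and Cldn3, and whether these genes could be counted in the deposited table is not known.

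The target genes tested had a median log2 fold change of -0.23, with 2 above 0 and 6 below, and the most abundant was Ccnd1, with 89.1 to 253.8 CPM. The 3 other Janus kinase genes had a median of 0.10, and Jak1, the most abundant, had 61.1 CPM in HFB 5 and 25.7 CPM in HFB 6 against 110 to 234 CPM elsewhere, the libraries that were also low for Jak2 and Stat5b. Of the other Socs genes only Socs5 was tested, at -0.20 (22.0 to 45.7 CPM). The 14 adaptor and phosphatase genes had a median of -0.04, with Shc1 the most abundant (113 to 229 CPM), and the 5 other Jak2-coupled receptor genes tested had a median of -0.11, with Il6st the most abundant (128 to 282 CPM). The medians without HFB 6 and CTL 6 were -0.29 for the target genes, 0.20 for the Janus kinases, 0.05 for the adaptors and phosphatases and -0.18 for the 6 receptors then tested, and Socs5 was at -0.13. The medians over 12 libraries stand beside 0.00018 for all genes tested, and a list was only described, not tested.

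Marker genes of adipocytes, fibroblasts, epithelium, muscle and blood cells were counted in every library. None of their genes was called between the diets. The median log2 fold change was -0.34 for the 7 luminal genes tested, all of them below 0, and -0.26 for the 4 basal epithelial genes, all below 0. It was 0.40 for the 8 skeletal muscle genes, 0.32 for the 6 lymphoid genes and 0.96 for the 6 red blood cell genes, all above 0. Without HFB 6 and CTL 6 it was -0.03 for the skeletal muscle genes and 0.98 for the red blood cell genes. For the 4 lymphoid genes then tested it was 1.36. Of the libraries left, HFB 1 and HFB 2 had the highest lymphoid sums, 529.7 and 250.2 CPM, against 35.6 to 117.8 CPM in the rest. Without HFB 2 alone the median was 0.39 for the red blood cell genes, with 5 above 0 and 1 below. It was then -0.15 for the luminal genes, with 2 above 0 and 5 below. With all 12 libraries it was -0.14 for the 6 fibroblast genes, all below 0, -0.02 for the 10 adipocyte genes, -0.13 for the 3 endothelial genes, 0.09 for the 6 macrophage genes and 0.06 for the 11 immediate early genes.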

How the data were processed

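The authors deposited raw read counts per gene for 16511 genes, listed by rat Entrez identifier, with a column for each of the 12 libraries of whole glands. The submitters' processing notes name bcl2fastq, CASAVA 1.8, TopHat, DESeq and the build rn4, and the program, annotation and strand setting of the counting are not given in the sources used here. Symbols were looked up by identifier in RefSeq's table for GRCr8, where 16351 of the 16511 genes were found, and promoter windows came from RefSeq with the same build.

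Groups followed the diet in the labels, and library totals lay between 2320267 and 2944680. No pair of libraries of a diet agreed within sampling noise (lowest chi-square per degree of freedom 6.69 over 30 pairs). The design text gives a single gland from each litter. edgeR 4.0.16 (R 4.3.3) was run on the 9382 genes that passed filterByExpr (about 10 counts in at least 6 libraries), as a quasi-likelihood test after TMM scaling, with Benjamini-Hochberg adjustment over all of them and a threshold of 0.05. Single genes were also tested by a two-sided exact permutation test on log2 CPM (prior count 2), for which 0.00216 is the smallest p, adjusted over all 13557 genes with a count. Correlations used permutation tests with 100000 resamples, adjusted over 57 relations, in Python 3.11.15 with scipy 1.17.1 (exact over 6 libraries). The tests across genes were tried on simulated counts. The members and lists were chosen with earlier results of these data known. Named were all members, any other pathway gene with an unadjusted p under 0.05, the most abundant gene of each pathway list and the 3 genes with the highest r to each member, and a result that this rule would add is not reported here.

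Alternatives were DESeq2 1.42.0, limma 3.58.1 (voom with sample quality weights), DESeq2's size factors, upper-quartile and total-count scaling, the table unfiltered or held to 10 counts in each library, the skeletal muscle, lymphoid or adipocyte score as a covariate, a prior count of 0.5 for the relations, and each library left out. After the data had been seen the luminal epithelium score as a covariate, the fits, lists, spread and nearest genes without HFB 6 and CTL 6, the lists without HFB 2, and a prior count of 0.5 and DESeq2's size factors for the exact test were added. Transcript lengths were not used, so the most abundant gene of a list is the gene with the highest mean CPM, and levels of members are not compared with each other.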

Additional observations from a re-analysis of the deposited data

Results flagged for a closer look

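Within a diet, a library was marked where its gap to the nearest other library took up an unusually large share of the range of the 6 (Dixon's test at the 95% level). This was read in 40 groups, the CPM of the 9 members, 10 marker scores (mean log2 CPM) and the total counts in each diet, and 10 groups held such a library. Chance marks about 1 group in 20.

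Among the members these were Ghr in CTL 6, at 98.3 CPM, and Stat5a in HFB 2, at 63.8 CPM, each the lowest of its diet. CTL 6 was also marked by the lowest adipocyte score of CTL (9.84), its lowest fibroblast score (10.35) and its highest lymphoid score (7.08), and HFB 6 by the lowest adipocyte score of HFB (9.60). Of the other libraries, HFB 1 was marked by the lowest basal epithelium score of HFB (2.60) and CTL 3 by the highest red blood cell score of CTL (11.08). For total counts HFB 1 had the lowest of HFB, 2320267, and CTL 1 the highest of CTL, 2944680. The marks of CTL 6 are not independent of each other, as they share a library.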

How the results depend on the processing

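No paired analysis was possible because nothing in the labels links an HFB gland to a CTL gland. Under every alternative, planned or added, 0 members, 0 genes of the other pathway lists and 0 genes in all were called. In the edgeR, DESeq2 and limma-voom fits the members with an unadjusted p under 0.05 numbered 0 in each setting. With single libraries left out of the edgeR fit they numbered 0 to 1 (Socs2 without HFB 1). In the exact permutation test Prlr had p = 0.0325 with all libraries, and values of that test with libraries left out stand with the members. The 220 genes of all tested with an unadjusted p under 0.05 became 613 in limma-voom with sample quality weights, 356, 608 and 709 with the lymphoid, adipocyte or luminal epithelium score as a covariate, 431 without HFB 6 and CTL 6, and 135 to 587 with single libraries left out (587 without CTL 6).

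No member kept or lost a call, and signs turned where values were small. For Ghr the log2 fold change was 0.0063 in limma-voom, 0.23 with the lymphoid and 0.0112 with the adipocyte score, and -0.32 to 0.11 with single libraries left out. For Stat5a it was -0.0162 with upper-quartile scaling, -0.083 with total counts, -0.0028 with at least 10 counts in every library and -0.0055 in limma-voom, and -0.0168 to 0.0655 with libraries left out. For Stat5b it was 0.0419 in limma-voom and -0.28 to 0.0682 with libraries left out. For Cish it was 0.0282 with the lymphoid and 0.0147 with the adipocyte score, -0.63 in limma-voom, and -0.53 to 0.16 with libraries left out. For Jak2 it ran from -0.43 to 0.0103 and for Socs2 from -1.10 to -0.42 with libraries left out. With the luminal epithelium score it was -0.58 for Jak2, -0.48 for Ghr, -0.38 for Stat5b and -0.95 for Socs2, all farther from 0 than in the fit without it. In that setting it was 0.0429 for Stat5a, also farther from 0, and -0.0451 for Cish, nearer to 0. With total counts the median of all genes moved to -0.10.

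In differences of mean log2 CPM, leaving out libraries gave -0.59 to 0.28 for Ghr, -0.0197 to 0.0666 for Stat5a, -0.42 to 0.0072 for Stat5b, -0.37 to 0.0632 for Socs3 and -0.63 to 0.17 for Cish. The causes of these turns were not tested.

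Of the 57 relations 2 passed the threshold, against 3 on residuals from the diet means, 0 within HFB, 0 within CTL, 0 without HFB 6 and CTL 6, 0 without the 2 libraries farthest from the median, and 0 to 3 with single libraries left out. Within a diet the smallest p of the exact test over 6 libraries is 0.00139, which a single relation carries to an adjusted p of 0.0792, so a single relation could not pass there and these 0 counts say little.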
